A study of Canis lupus familiaris and Eptesicus fuscus and Equus caballus with 6 samples.

Results

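L1 elements with names ending in EC, the suffix Repbase gives to families built from horse sequence, were described in the testis mRNA of an adult horse. The 6 members, L1-1_EC, L1-2_EC, L1-2B_EC, L1-4_EC, L1-4B_EC and L1-5_EC, are the rows of the horse mRNA table that carry one of these names with the class LINE/L1. They are 6 of 111 L1 models and of 986 repeat models in that table, and the mRNA tables of the series hold 2452 models in all. They were chosen by their measured level in this library: by TPM they hold ranks 1 to 6 among the horse L1 models, so their levels are a description and are not tested.

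The study took adult testis of dog, horse and the bat Eptesicus fuscus, and sequenced small RNA and mRNA of each. Each of these 6 groups is 1 library, with no treatment and no strain or age in years given in the labels. No difference below has a replicate check, and the horse values stand for 1 library only. The tables list repeats and no protein-coding genes, so markers of testis cells were not analysed here.

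L1 is the main autonomous retrotransposon of mammals. A whole L1 carries a promoter in its 5' end, an ORF1 that codes for an RNA-binding protein, an ORF2 that codes for an endonuclease and reverse transcriptase, and a 3' end with a poly(A) tail. Copying often stops early, so that genomes hold many copies that lack the 5' end. In the male germ line, PIWI proteins guided by piRNAs act against L1 RNA. A subfamily is a group of copies that share diagnostic changes, and its closeness to the parent family is why reads can match both. Which models are parent and subfamily, such as L1-2 and L1-2B, was taken here from their names only. No consensus sequence of these elements was used here, so no sequence is shown and no identity between the 6 models is given.

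Values are in TPM, a level per length of the model and scaled to a fixed sum over all models of the table, rRNA and simple repeats included. The deposited bounds of each TPM are printed after it as an interval. They cover counting and the assignment of reads to models in this library, and their level is not given in the sources used here. Reads were rebuilt from TPM and model length, which gave 666118 reads on the horse table, 174903 of them on transposable elements and 124647 on L1. Intervals on reads and shares of reads are exact 95% intervals and cover counting error only.

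The 6 models spanned a 2.78-fold range of TPM. L1-2_EC had the highest level, 8224 TPM (8019 to 8267), over a model of 5921 nt, the shortest of the 6. L1-1_EC followed with 6734 TPM (6564 to 6774) over 6653 nt. L1-5_EC had 6375 TPM (6202 to 6420) over 6133 nt. These 3 models, none of them a subfamily by name, were the highest, and the first subfamily came next.

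L1-2B_EC, the subfamily of L1-2, had 5188 TPM (5037 to 5235) over 5996 nt. L1-4B_EC had 4498 TPM (4370 to 4539) over 7034 nt, the longest of the 6. L1-4_EC, the parent by name of L1-4B, was the lowest with 2954 TPM (2856 to 2992) over 6798 nt. No deposited interval overlapped that of the next model in this order. The closest neighbours were L1-1_EC and L1-5_EC, with a TPM ratio of 1.06 (1.03 to 1.08 from counting).

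**Figure D1:**
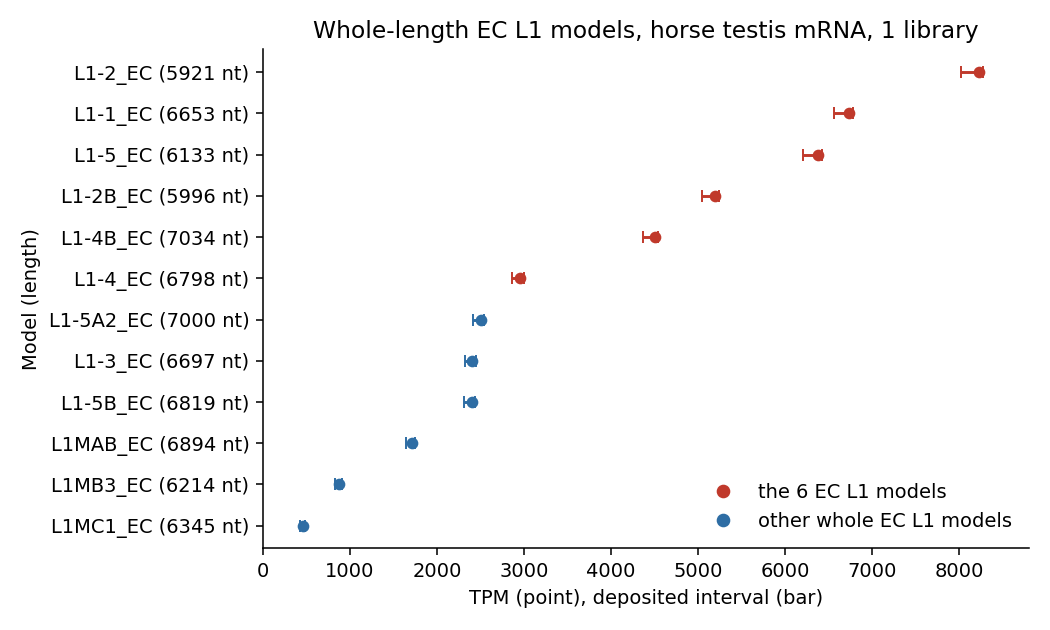
TPM of the 12 EC L1 models over 5900 nt in the horse testis mRNA library, with points for TPM and bars for the deposited interval. The 6 models of the list (red) run from 2954 to 8224 TPM and the other 6 (blue) from 455 to 2499 TPM.

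The values around the edge of the list were close. Just inside it stood L1-4_EC at 2954 TPM. Just outside stood L1MB7_3end, the 3' part of an older L1 family, at 2778 TPM (2573 to 2941), and its interval overlapped that of L1-4_EC. L1MB3_3end (2532 TPM) and L1-5A2_EC (2499 TPM) came next. As the members are the highest L1 models by TPM, the highest models outside must also be the nearest to the members' median of 5781 TPM. On the log2 scale these 3 models lay at distances of 1.06, 1.19 and 1.21 from it. With 1 library this likeness is one of level only.

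By reads the gap at the edge was of another size, since the part models are short. L1-4_EC had 7648 rebuilt reads, against 963 on L1MB7_3end and 6664 on L1-5A2_EC. The 5 models with most reads outside the list were all long EC models: L1-5A2_EC, L1-5B_EC (6227 reads), L1-3_EC (6126), L1MAB_EC (4479) and L1MB3_EC (2067).

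Parent family and subfamily did not keep one order. In L1-2 the parent was higher: L1-2_EC stood 1.59-fold above L1-2B_EC in TPM (1.55 to 1.62), a log2 ratio of 0.66. In L1-4 the parent was lower: L1-4_EC stood at 0.657 times the TPM of L1-4B_EC (0.638 to 0.676), a log2 ratio of -0.61. The deposited intervals did not overlap in either pair. The models of a pair were near in length, L1-2_EC being 75 nt shorter than L1-2B_EC and L1-4_EC 236 nt shorter than L1-4B_EC, and the read ratios were 1.57 and 0.634.

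L1-5_EC has 2 long subfamily models outside the list. Its TPM was 2.55 times that of L1-5A2_EC (2.48 to 2.63) and 2.66 times that of L1-5B_EC (2.58 to 2.74). L1-5A2_EC and L1-5B_EC themselves lay close, at 2499 TPM (2413 to 2539) and 2397 TPM (2310 to 2439). Their deposited intervals overlapped, although counting alone gave a ratio of 1.04 (1.01 to 1.08). L1-5_EC is 867 nt shorter than L1-5A2_EC and 686 nt shorter than L1-5B_EC.

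Summed by family name, L1-2 held the largest share of the L1 reads among the 5 EC families of the L1-number form. Its 2 models took 24.4% (24.1 to 24.6%), and the 5 models of L1-5, with its 5' parts, took 22.3% (22.1 to 22.6%). L1-4 with 2 models took 15.8% (15.6 to 16.0%). L1-1, with a single model, took 13.7% (13.5 to 13.9%), and L1-3, also a single model, took 4.91%. L1-1_EC was thus the second model of the list by level, while its family was the fourth by reads.

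The order of the 6 by reads differed from that by TPM in 1 place. L1-2_EC led with 18539 rebuilt reads (18273 to 18808), followed by L1-1_EC with 17064 (16809 to 17322) and L1-5_EC with 14886 (14648 to 15128). L1-4B_EC had 12054 reads (11840 to 12271) and L1-2B_EC 11843 (11631 to 12059). Their read ratio was 1.02 (0.992 to 1.04), so the order of these 2 by reads is within counting error, while per length L1-2B_EC was above L1-4B_EC by 1.15-fold (1.12 to 1.18). L1-4_EC was last on both scales, with 7477 to 7821 reads as its counting interval.

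The 6 models together held 65.8% of all L1 reads (65.5 to 66.1%) and 46.0% of all L1 TPM (43.1 to 48.7% when the deposited bounds are set against each other). They took 46.9% of the reads on elements (46.7 to 47.1%) but 6.87% of the element TPM, and 12.3% of all rebuilt reads of the table. In TPM of the whole table they came to 3.40%. These whole-table shares depend on rRNA, as 252147 of the 666118 rebuilt reads lay on SSU-rRNA_Hsa and 228305 on LSU-rRNA_Hsa. As each model's share of L1 reads, L1-2_EC held 14.9%, L1-1_EC 13.7%, L1-5_EC 11.9%, L1-4B_EC 9.67%, L1-2B_EC 9.50% and L1-4_EC 6.14%. By L1 TPM these shares were 11.1%, 9.12%, 8.63%, 6.09%, 7.02% and 3.999%. Within the list, reads were spread: L1-2_EC held 22.6% of the 82034 reads of the 6, and L1-4_EC 9.32%.

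**Figure D2:**
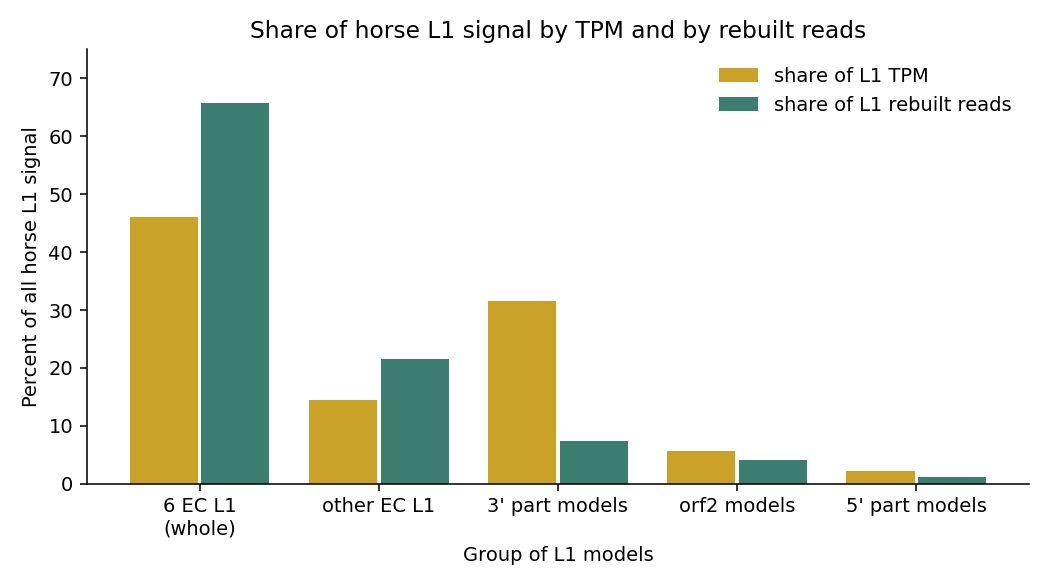
Percent of all horse L1 signal held by groups of L1 models, by TPM (yellow) and by rebuilt reads (green). The 6 EC L1 models go from 46.0% by TPM to 65.8% by reads, while the 44 models of 3' parts go from 31.6% to 7.31%. The 5 L1 models not drawn (4 HAL1 models and 1 other) hold the remainder.

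The gap between the shares follows from model length. The members were 5921 to 7034 nt long, and no L1 model without an EC name was longer than 3294 nt. Most models without EC names are separate 5' part, orf2 or 3' part models. Some older families are also listed whole under EC names, such as L1MAB_EC with 6894 nt. TPM is a level per length that does not weigh a model by how long it is, so a family filed in parts adds a level for each part. The 44 models of 3' parts had a median of 125 TPM and a highest value of 2778 TPM. The 6 orf2 models had a median of 706 TPM and the 40 models of 5' parts one of 9.98 TPM, with 7 of the 40 listed at 0.

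**Figure D3:**
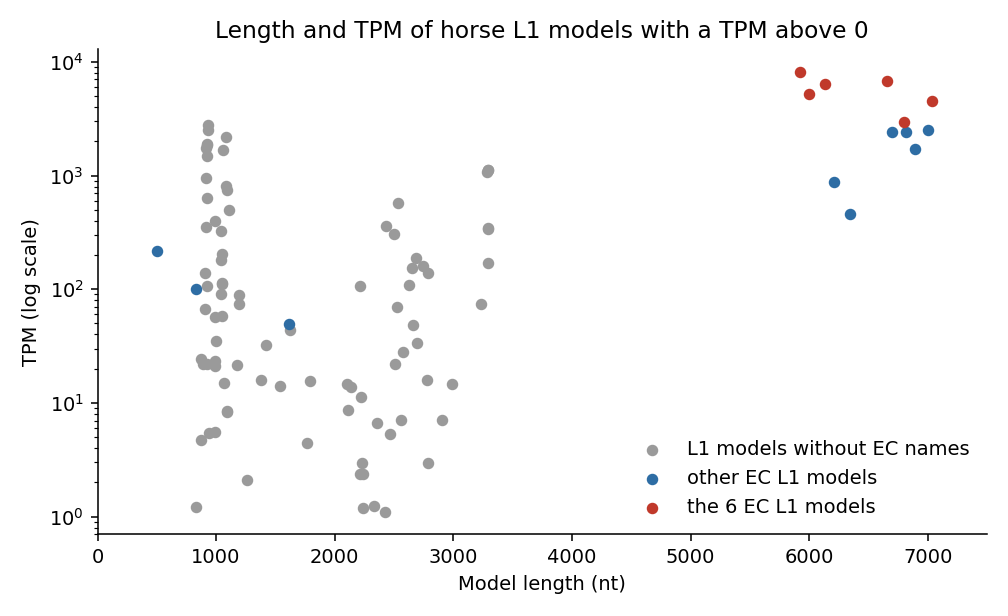
Model length in nt against TPM (log scale) for the 102 horse L1 models with a TPM above 0, 1 point per model. The 6 EC L1 models (red) lie between 5921 and 7034 nt at the top, and all models without EC names (grey) end at 3294 nt.

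Some families have both a long EC model and a part model, whose levels differed. L1MB3_3end had 2.90 times the TPM of the long L1MB3_EC (2.68 to 3.14), at 2532 against 873 TPM. L1MC1_3end had 4.82 times the TPM of L1MC1_EC (4.41 to 5.28), at 2192 against 455 TPM. How 3' reads were divided between the part and the long model was not tested, and these intervals cover counting only. Among the members, only L1-5 has part models of its own name, and they cover 5' ends. L1-5_A5end_EC (502 nt) had 217 TPM (152 to 288) from 39.6 rebuilt reads, and L1-5_B5end_EC (829 nt) had 101 TPM (69.3 to 140) from 31.0 reads.

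The level of L1-5_EC was 29.4 times that of L1-5_A5end_EC (21.4 to 40.8) and 63.3 times that of L1-5_B5end_EC (44.6 to 93.2). By their letters these 5' parts may instead belong to L1-5A2_EC (2499 TPM) and L1-5B_EC (2397 TPM). Those long models were lower than L1-5_EC, so ratios to them would be smaller. In the older L1MAB the long model was also above its 5' part. L1MAB_EC had 1705 TPM and L1MAB_5end_EC 49.3 TPM, a ratio of 34.6 (24.2 to 51.3). L1MAB1_5_EC was listed at 0 TPM, with an upper bound of 4.67. Whether 5' reads of L1-5 were assigned to the long models rather than to the 5' part models was not tested. No other member has a 5' or 3' part model, so their reads could not be split along the element, and copies transcribed on their own could not be told apart from copies lying within other transcripts.

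The width of the deposited intervals, relative to TPM, was set against that of exact 95% counting intervals of the rebuilt reads. The TPM by which the list was chosen enters both widths, so their ratio is a description and not a separate check. The level of the deposited bounds is not given, so the ratio compares models with each other and its size holds for bounds of 95% only. As a percent of TPM they ran from 3.02% for L1-2_EC to 4.60% for L1-4_EC. Divided by the exact Poisson width of the rebuilt reads, the ratio was 1.05 for L1-2_EC, 1.03 for L1-1_EC, 1.06 for L1-5_EC, 1.05 for both L1-2B_EC and L1-4B_EC, and 1.02 for L1-4_EC. None of the 6 was over 1.5 times the counting width, where 1.74% of all 287 horse models with at least 10 reads were (5 models). This count says nothing particular to the 6, which all had at least 7648 reads, since the 5 wide models had at most 145.5 reads. The 20 other horse models with at least 1000 reads had ratios from 0.902 to 1.44 with a median of 1.02, and 0 of them were over 1.5.

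The 66 other L1 models with at least 10 reads had ratios from 0.933 to 1.83 with a median of 1.02, and the median over all 287 models was 0.974. The widest was L1MC4_3endX, a 3' part model with 137.7 TPM and an interval from 74.0 to 158, at 1.83 times the counting width. L1-5B_EC had a ratio of 1.08 and L1MC1_EC one of 1.13. Reads that fit several related models are shared out by estimate, and the members' levels depend on that step, whatever the width of their intervals.

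**Figure D4:**
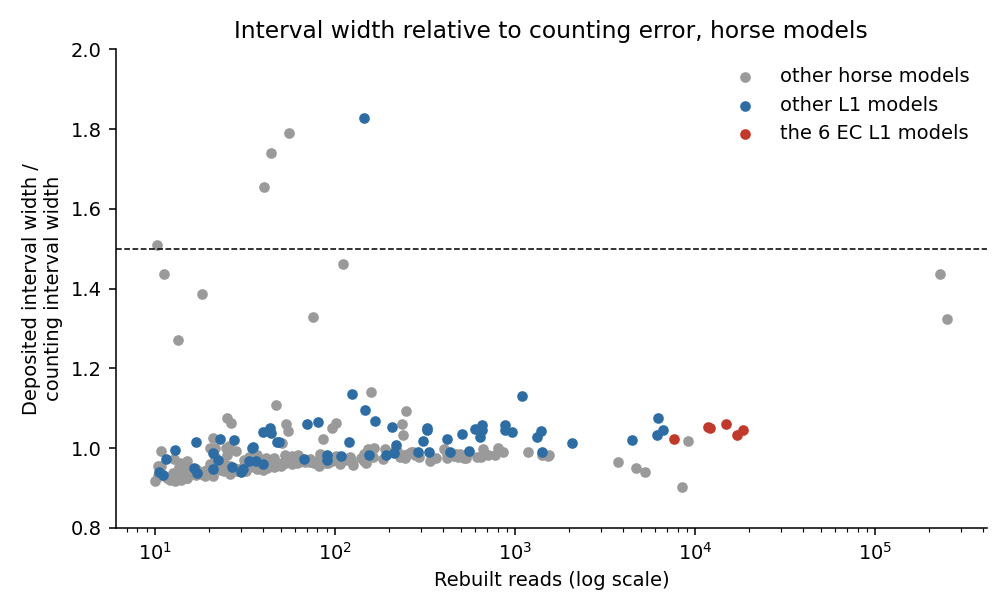
Width of the deposited TPM interval divided by the Poisson width of the rebuilt reads, against rebuilt reads (log scale), for the 287 horse models with at least 10 reads. The 6 EC L1 models (red) lie between 1.02 and 1.06, and 5 models lie above the dashed line at 1.5.

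The remaining L1 models of the table form the background of the list. The 10 other EC models took 21.5% of the L1 reads (21.2 to 21.7%) and 14.5% of the L1 TPM, with a median of 664 TPM. The 95 models without EC names took 12.7% of the L1 reads and 39.5% of the L1 TPM, with a median of 34.8 TPM and 8 listed at 0. Grouped by the first 4 letters of the name, the 8 L1MB models had the highest median, 1812 TPM, and 3.67% of the L1 reads. The medians were 180 TPM for 9 L1MA models, 108 TPM for 13 L1MC models, 161 TPM for 7 L1MD models and 21.1 TPM for 27 L1ME models. These groups hold 5', orf2 and 3' part models in unlike proportions, L1MB being mostly 3' parts. Their medians thus do not compare families alone. Models named L1M with a number, such as L1M4_orf2 (1411 reads) and L1M3_orf2 (1328 reads), are in none of these groups.

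HAL1, an L1-derived element that lacks much of the L1 coding sequence, had 4 models with a median of 9.96 TPM and 43.5 reads in all. The single L1P model, L1PB4_3end, had 67.1 TPM. Over all 111 L1 models the median was 70.5 TPM and 72 models had at least 10 reads.

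ERE SINEs, the tRNA-derived short elements of horses that rely on LINE proteins for copying, were listed per length far above the 6 L1 models. The 14 ERE models summed to 10.2 times the TPM of the 6 L1 models, with ERE1 at 109026 TPM, ERE2 at 61053 TPM and ERE3 at 54407 TPM. By reads the order was the opposite, since the ERE models are short: the 6 L1 models had 2.87 times the reads of the 14 ERE models, which took 16.3% of the element reads (16.2 to 16.5%).

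None of the 6 names occurs in the dog or bat table, so the members have no value there, and only shares can be set side by side. In horse, the 16 EC models took 87.3% of the L1 reads (87.1 to 87.5%). In dog, 21 L1 models named for Canis familiaris (Cf), Canis or carnivores took 90.4% (90.2 to 90.6%), and 96.2% when 4 models with Canid names were counted too. In bat, 4 L1 models named EF took 83.2% (82.5 to 83.8%) of the expected counts on LINE models with L1 in the name. By L1 TPM the order differed: the EC models held 60.5% in horse, the 21 dog models 88.9% and the 4 bat models 68.9%. With these name rules horse was above bat by reads and below it by TPM. The rules differ in breadth, as dog counts names for all carnivores and bat only the EF suffix. Bat L1 models left out include RFER.R45.L1 (4.79% of L1 reads), MLUC.L1MAB2_ML (2.83%) and PVAM.L1-4_PVA (2.70%). The order of the species therefore holds for these name rules only. The suffix tells which genome a model was built from, and the EC models include L1MAB_EC, L1MB3_EC and L1MC1_EC, which belong to older families. Species, library and the set of models cannot be told apart in these shares, nor can fewer cells of a type and less RNA per cell.

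Single models weighed less in horse than in the other 2 tables. L1-2_EC held 14.9% of the horse L1 reads (14.7 to 15.1%), L1_Cf_orf2 19.1% of those of dog (18.9 to 19.4%) and L1-4A_EF 49.2% of those of bat (48.3 to 50.0%). The 4 leading models were needed to pass 50% of the L1 reads in horse and in dog, and 2 in bat. The effective number of L1 models, 1 over the sum of squared shares of reads, was 11.4 in horse, 9.03 in dog and 3.44 in bat. The tables had 111, 120 and 22 such models. The leading horse models are whole elements and the leading dog models are parts of families, so these numbers count unlike units.

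**Figure D5:**
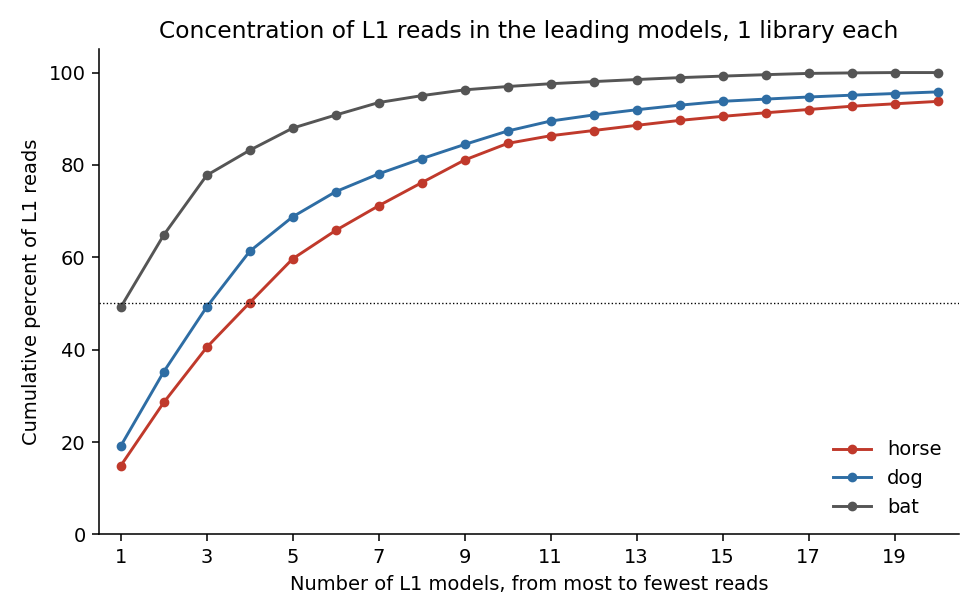
Cumulative percent of L1 reads over the 20 L1 models with most reads in horse, dog and bat, 1 library each. The leading model holds 14.9% in horse, 19.1% in dog and 49.2% in bat.

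Dog L1 families are filed in parts, so the families rather than the models are the nearer match to the horse list. L1_Canis1 with its 3 parts held 34.0% of the dog L1 reads (33.6 to 34.3%) and L1_Cf with its 3 parts 32.1% (31.7 to 32.4%), over summed lengths of 6500 and 6623 nt. In horse the leading family, L1-2 with 2 long models, held 24.4%. L1_Canis2, with its 5' part and orf2, held 14.96% in dog. It has no 3' part model, and whether its 3' reads were counted on other families was not tested.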

How the data were processed

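The mRNA tables of horse, dog and bat were used, 1 library each. Per the file headers, the authors deposited TPM, its lower and upper bounds and the model length for each repeat model, and expected counts for bat only. Bowtie, RSEM (no versions) and CanFam3.1, a dog build, are named for the horse as well, per the submitters' processing notes; the model library is not given in the sources used here. The small RNA tables were not used, since placing reads needs element sequences.

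Reads were rebuilt as the product of TPM and the effective length (24 nt under the model length), in units of its most frequent low value; the bat expected counts gave an offset of 24.0 nt. Among 251 horse models under 20.5 reads, 51.4% came within 0.05 of a whole number with 24 nt, against 51.8% with 23 nt, 53.8% with 25 nt and 53.0% with 26 nt, so the horse table alone does not single out 24 nt. The rebuilding was also run on counts simulated from the rebuilt horse reads with the same 24 nt. That run checks the calculation only and cannot test the offset or the sharing of reads between models. Totals were 666118 reads in horse, 679582 in dog and 55904 expected counts in bat. Elements are LINE, SINE, LTR, DNA and RC classes. Ratios and shares carry exact 95% intervals (conditional binomial, Clopper-Pearson; SciPy 1.17.1, Python 3.11.15).

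The members and lists were chosen with earlier results of these data known. Named were the members, the other EC models, the 5 L1 models outside with the highest TPM or most reads, the 3 nearest in log2 TPM, and the leading models of HAL1, L1M, L1P, ERE, dog and bat lists. L1MC4_3endX and the 5900 nt limit were chosen after values were seen. Other units, denominators, pseudocounts and offsets were tried.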

Additional observations from a re-analysis of the deposited data

How the results depend on the processing

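Of 24 alternatives over 9 results, 13 stayed within the interval of the reported value and 11 moved outside it. For the width ratio, the range over the 6 models served as the interval. A direction was reversed by 0 of them, but of the 9 results only the family log2 ratios have a sign that could reverse. The share of L1 TPM held by the 6 models (46.0%) became 65.8% by rebuilt reads and 76.6% without the part models. Without those, almost all the L1 TPM left is on the 12 EC models over 5900 nt. The 76.6% is thus close to a share of the EC set. A limit of 1 TPM removed only models listed at 0 and so left the 46.0% as it was. Of element reads they held 46.9%, against 45.9% with full model lengths and 6.87% of element TPM, where short SINEs weigh more. By reads, the log2 ratio of L1-4_EC to L1-4B_EC was -0.66 and the highest model stood 2.42-fold over the lowest. The share of L1 held by models named for the species or its lineage was 60.5% of TPM in horse and 81.1% of reads with names of the L1-number form only, and in dog 88.9% of TPM and 96.2% of reads with Canid names. The interval over counting width had a median of 1.05, and 1.02 with full model lengths. Pseudocounts of 1 and 10 TPM moved neither family ratio outside its interval, and at levels of 2954 TPM and above they could hardly do so. The alternatives with interval midpoints and with other lists of names were added after the data were seen. Posterior mean TPM, which was also planned, was not run, as it was not among the values used here. No paired analysis was possible because each group is 1 library.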

Other observations

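The deposited TPM of the 6 models lay off the centre of their own intervals, toward the upper bound. Measured from the lower bound, TPM stood at 82.9% of the interval in L1-2_EC, 81.1% in L1-1_EC, 79.4% in L1-5_EC, 76.3% in L1-2B_EC, 75.8% in L1-4B_EC and 71.5% in L1-4_EC, the order of their TPM. The midpoint of the interval of L1-2_EC was 8143 TPM, against 8224 TPM as deposited. All 20 other horse models with at least 1000 reads also lay above the middle, with a median of 65.5%, while the median was 47.3% over the 261 models with 10 to 1000 reads. The rRNA models went past it: the 18S model, SSU-rRNA_Hsa, was listed at 357524 TPM with an upper bound of 355895, and the 28S model, LSU-rRNA_Hsa, at 119190 TPM with an upper bound of 118732. In dog both rRNA models were also above their upper bounds, and the 18 dog models with at least 1000 reads had a median position of 63.8%. The bat L1 models named EF lay at 58.8 to 73.2%, with L1-4A_EF the highest. The intervals of the abundant models were thus centred below the TPM beside them, and the cause was not tested.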
